A study of Homo sapiens with 4 samples.

Results

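Cholesterol and fatty acid synthesis were described through 34 genes of the 58174 in the deposited table. They were chosen by name from the known pathways, with earlier results of these data known. Of the 34 genes, 19 were sterol genes (18 enzymes, from ACAT2 and HMGCS1 to SC5D and DHCR7, and the sterol carrier STARD4). Another 12 were fatty acid genes and 3 were control genes (SREBF1, SREBF2 and INSIG1). RNA was sequenced 48 h after transient transfection of an siRNA, in 4 groups of 1 library each. They were H1299 cells with siCDH3, H1299 cells with siCTR, HCC827 cells with siCDH3 and HCC827 cells with siCTR. H1299 was grown from a lymph node metastasis of a lung carcinoma, HCC827 is an EGFR-mutant lung adenocarcinoma line, and siCTR is the control siRNA. Levels are given as TPM, a measure of transcript abundance and a length-scaled level with the same total in each library, so that genes can be compared with each other. All 34 genes reached a TPM of 5 in 1 or both libraries of each line, which was the filter on low values. In bulk RNA, fewer cells with a transcript and less of it per cell cannot be told apart.

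Cells make cholesterol from acetyl-CoA through mevalonate, farnesyl diphosphate, squalene and lanosterol, and make fatty acids from the same acetyl-CoA through malonyl-CoA. Both branches are switched on by SREBP transcription factors, which are encoded by SREBF2 (mainly sterol genes) and SREBF1 (mainly fatty acid genes). When sterols are plentiful, INSIG1 holds these factors in the endoplasmic reticulum. Proliferating carcinoma cells often run both branches at a high rate to build membranes.

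The libraries were checked first. CDH3 (P-cadherin, a cadherin of epithelial junctions), the silenced gene, had a TPM of 0.169 in H1299 siCDH3 and 1.21 in H1299 siCTR, so this line held little of it before silencing. In HCC827 it had 78.8 in siCDH3 and 172.7 in siCTR, and 45.6% was left. The epithelial markers EPCAM, CDH1, KRT7, KRT8, KRT18 and KRT19 all reached a TPM of 5 in both HCC827 libraries. In H1299 3 of the 6 did so, and EPCAM and CDH1 stayed under 1 TPM. All 4 mesenchymal markers (VIM, ZEB1, CDH2 and FN1) reached 5 TPM in both H1299 libraries. In both HCC827 libraries 2 of the 4 (VIM and FN1) did so. VIM had 5060 TPM in siCDH3 and 5149 TPM in siCTR of H1299, and 8.20 and 9.64 TPM in those of HCC827. FN1 did not separate the lines, at 88.1 and 119.4 TPM in siCDH3 and siCTR of H1299. In HCC827 it had 118.9 and 96.8 TPM. None of the 3 hepatocyte or 4 adipocyte markers (the cells best known for lipid synthesis) reached 5 TPM in a library. The 37 mitochondrially encoded genes took 16.4% of TPM in H1299 siCDH3, 13.5% in H1299 siCTR, 34.4% in HCC827 siCDH3 and 36.2% in HCC827 siCTR, which lowers every other TPM of a library by its share.

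Each group has 1 library, so differences within a line have no replicate check and no test. Differences are given as log2 ratios of TPM + 1, siCDH3 over siCTR, and were counted when they reached 1.5-fold (0.58 on the log2 scale). Among 11622 genes of H1299 that passed the filter, 3.21% were higher by this rule and 7.11% were lower in siCDH3, and the median of all genes was -0.11. Of 11043 genes in HCC827, 3.35% were higher and 2.54% lower, with a median of 0.03. Of the 34 lipid synthesis genes, 0 were higher and 4 were lower in H1299 siCDH3 (STARD4, CYP51A1, MSMO1 and ACSL1). With the median of all genes set to 0, 1 was higher (DHCR7) and 3 were lower, without ACSL1. The cut-offs in H1299 then lay close to log2 ratios of -0.70 and 0.48. At or below these 2 values lay 4.36% and 95.4% of all genes. In HCC827 siCDH3 2 were higher (ACACA and DHCR7) and 0 were lower, also with that median set to 0. Without the median set to 0, the shares over all genes correspond, for 34 genes, to about 2 lower genes in H1299. In each of the other directions they correspond to about 1 gene, so the counts on that scale lie near the background. None of the 34 reached 2-fold in either line. A 2-fold higher level was seen for 0.878% of all genes and a 2-fold lower one for 1.58% in H1299. In HCC827 these shares were 1.01% and 0.833%.

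**Figure D1:**
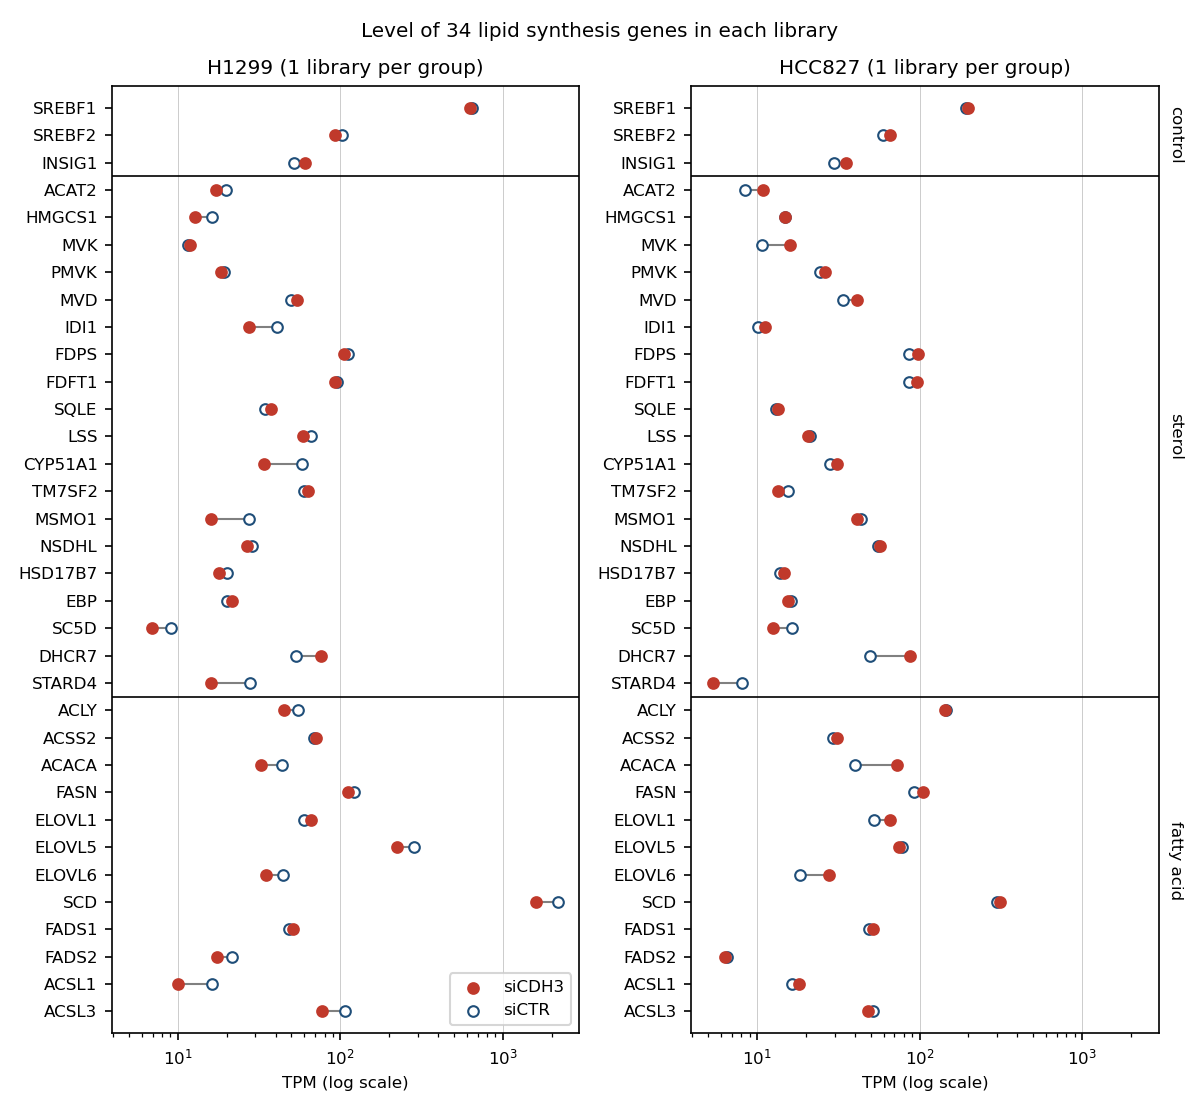
TPM (log scale) of the 34 genes in each library, with filled points for siCDH3 and open points for siCTR, H1299 at the left and HCC827 at the right. SCD in H1299 stands highest, at 1591 TPM in siCDH3 and 2189 TPM in siCTR, and most pairs of points nearly touch.

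The control genes differed little between siCDH3 and siCTR. SREBF1, which encodes SREBP-1, had 627.6 TPM in siCDH3 and 648.5 TPM in siCTR of H1299, and 199.03 and 193.95 TPM in siCDH3 and siCTR of HCC827. SREBF2, which encodes SREBP-2, had 93.3 TPM in siCDH3 and 102.8 TPM in siCTR of H1299, and 65.5 and 59.3 TPM in siCDH3 and siCTR of HCC827. INSIG1, itself a target of SREBPs, had 60.6 TPM in siCDH3 and 51.96 TPM in siCTR of H1299, and 35.1 and 29.9 TPM in siCDH3 and siCTR of HCC827. INSIG1 was thus the one control gene that was higher in the siCDH3 library of both lines by more than a few percent, at 0.22 (H1299) and 0.23 (HCC827) on the log2 scale, short of the 1.5-fold rule. SREBF1 was at -0.05 and 0.04, and SREBF2 at -0.14 and 0.14. In every library SREBF1 had the higher level of the SREBP genes, at 6.72 times the TPM of SREBF2 in H1299 siCDH3, 6.31 times in H1299 siCTR, 3.04 times in HCC827 siCDH3 and 3.27 times in HCC827 siCTR.

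The early, mevalonate steps of sterol synthesis had small log2 ratios in H1299. Of 7 genes, 0 reached 1.5-fold, and the list ran from -0.57 to 0.13 with a median of -0.08. The lowest was IDI1, which isomerises isopentenyl diphosphate, with 27.3 TPM in H1299 siCDH3 and 40.99 TPM in H1299 siCTR, 1.503-fold lower by TPM. On the TPM + 1 scale its log2 ratio was -0.57, short of the rule, and with a pseudocount of 0.1 it was -0.59, past it. IDI1 had 11.2 TPM in HCC827 siCDH3 and 10.1 TPM in HCC827 siCTR, a log2 ratio of 0.14. HMGCS1, the cytosolic HMG-CoA synthase, was at -0.32 in H1299 and -0.01 in HCC827. In HCC827 6 of the 7 genes lay above the median of all genes, the exception being HMGCS1, and the median of the 7 was 0.19. The highest there were the mevalonate kinase gene MVK (0.52), the thiolase gene ACAT2 (0.33), MVD (0.28), which decarboxylates mevalonate diphosphate, and the farnesyl diphosphate synthase gene FDPS (0.19). In H1299 these 4 were at 0.03, -0.20, 0.13 and -0.08, and the phosphomevalonate kinase gene PMVK was at -0.04 in H1299 and 0.10 in HCC827.

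The steps that make squalene and close it to lanosterol hardly differed. FDFT1 (squalene synthase) was at -0.04 in H1299 and 0.17 in HCC827 on the log2 scale, SQLE (squalene epoxidase) 0.14 and 0.03, and LSS (lanosterol synthase) -0.17 and -0.05. FDFT1 and FDPS were the 2 sterol genes with the highest TPM in all 4 libraries.

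Between lanosterol and cholesterol, 2 of 8 genes were at least 1.5-fold lower in H1299 siCDH3, where 7.11% of all genes were lower. In HCC827 siCDH3 1 of the 8 was higher, where 3.35% of all genes were higher. CYP51A1, the lanosterol demethylase, had 34.01 TPM in H1299 siCDH3 and 58.04 TPM in H1299 siCTR, 58.6% of the control level and a log2 ratio of -0.75. In HCC827 it had 30.9 TPM in siCDH3 and 28.05 TPM in siCTR, a log2 ratio of 0.14. MSMO1, the methylsterol oxidase that acts soon after CYP51A1, had 15.9 TPM in H1299 siCDH3 and 27.5 TPM in H1299 siCTR, a log2 ratio of -0.75. In HCC827 it had 41.01 TPM in siCDH3 and 43.5 TPM in siCTR, a log2 ratio of -0.08. Of the 11622 genes of H1299, 419 had a lower log2 ratio than CYP51A1 and 421 a lower one than MSMO1. The enzymes that act beside MSMO1 did not share its ratio, with NSDHL at -0.11 in H1299 and HSD17B7 at -0.15.

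DHCR7 encodes the reductase of the last step to cholesterol, and SC5D the desaturase just before it. DHCR7 had 76.3 TPM in H1299 siCDH3 and 53.7 TPM in H1299 siCTR, and 86.7 TPM in HCC827 siCDH3 and 49.8 TPM in HCC827 siCTR. It was higher in the siCDH3 library of both lines, by a log2 ratio of 0.50 in H1299, under the 1.5-fold rule, and of 0.79 in HCC827, past it. Relative to the median of all genes the ratio was 0.61 in H1299, which passes the rule. In H1299 508 genes and in HCC827 198 genes had a higher log2 ratio. SC5D went the other way in both lines, with log2 ratios of -0.34 and -0.36, short of the rule. DHCR7 thus had 10.9 times the TPM of SC5D in H1299 siCDH3 and 5.91 times in H1299 siCTR, and 6.91 times in HCC827 siCDH3 and 3.04 times in HCC827 siCTR. The isomerase gene EBP (0.10 and -0.05) and the reductase gene TM7SF2 (0.08 and -0.19) stayed near their control levels in H1299 and HCC827.

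STARD4 encodes a soluble protein that carries cholesterol between membranes. It had 16.0 TPM in H1299 siCDH3 and 27.8 TPM in H1299 siCTR, a log2 ratio of -0.76, the lowest of the 34 genes in this line. In HCC827 it had 5.32 TPM in siCDH3 and 8.02 TPM in siCTR, a log2 ratio of -0.51, also the lowest of the 34 and short of the rule. STARD4 and SC5D were the sterol genes with log2 ratios under -0.3 in both lines. Over the 19 sterol genes the median log2 ratio was -0.11 in H1299, the same as the median of all genes, with 10 genes below it and 9 above. In HCC827 it was 0.08, against 0.03 for all genes, with 7 genes below and 12 above.

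**Figure D2:**
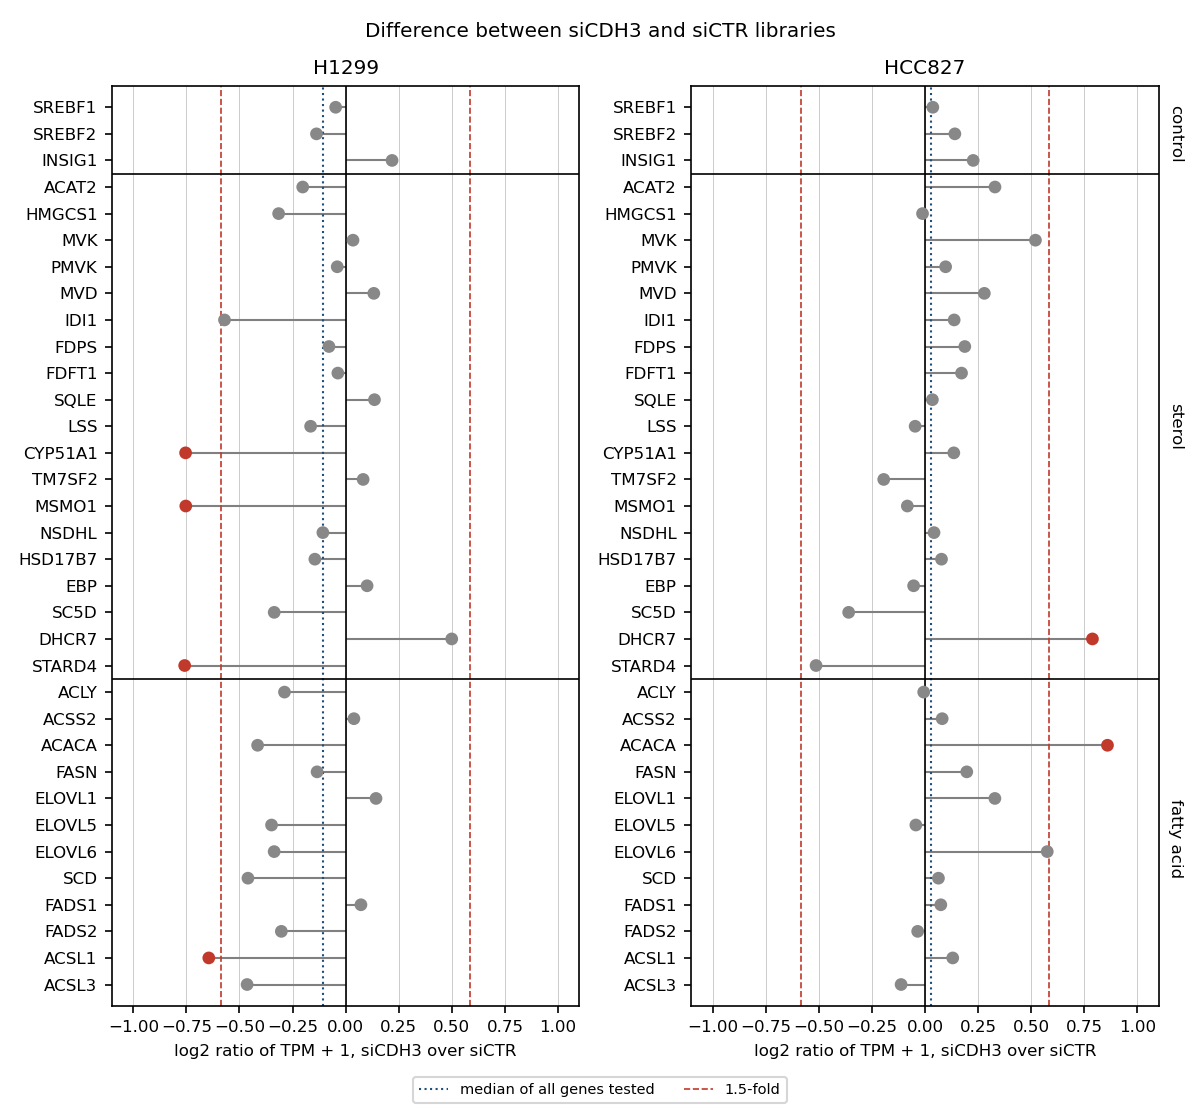
Log2 ratio of TPM + 1, siCDH3 over siCTR, of the 34 genes in H1299 (left) and HCC827 (right). Red points reach 1.5-fold (dashed lines at 0.58 either side of 0), and the dotted line is the median of all genes tested, -0.11 in H1299 and 0.03 in HCC827. STARD4, CYP51A1, MSMO1 and ACSL1 are lower in H1299 siCDH3, and ACACA and DHCR7 are higher in HCC827 siCDH3.

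The promoters of the sterol genes past 1.5-fold in either line are given here with that of SREBF2. The sequences are as RefSeq has them on GRCh38.p14, for the 250 bases before the transcript start. They were searched on both strands for a sterol response element, to which SREBPs bind (written TCACNCCAC), for a CCAAT box, at which NF-Y, a partner of SREBPs, binds (CCAAT), for an E-box (CACGTG) and for a GC box (GGGCGG). Capitals mark the sterol response element and the CCAAT boxes, read on either strand, so that ATTGG is a CCAAT box of the other strand. In SREBF2 these motifs do not overlap.
SREBF2 (chr22:41832855-41833104, plus strand): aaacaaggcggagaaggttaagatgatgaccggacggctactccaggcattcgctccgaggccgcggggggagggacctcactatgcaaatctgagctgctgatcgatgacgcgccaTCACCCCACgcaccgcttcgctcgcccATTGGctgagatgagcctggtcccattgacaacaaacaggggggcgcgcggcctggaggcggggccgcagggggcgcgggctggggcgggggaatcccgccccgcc
CYP51A1 (chr7:92134478-92134727, minus strand): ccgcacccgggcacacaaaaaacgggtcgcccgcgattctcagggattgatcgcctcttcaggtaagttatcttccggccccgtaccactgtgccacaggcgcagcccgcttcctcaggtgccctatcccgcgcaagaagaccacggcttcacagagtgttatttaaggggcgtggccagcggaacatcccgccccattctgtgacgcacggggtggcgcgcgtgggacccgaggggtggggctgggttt
MSMO1 (chr4:165327419-165327668, plus strand): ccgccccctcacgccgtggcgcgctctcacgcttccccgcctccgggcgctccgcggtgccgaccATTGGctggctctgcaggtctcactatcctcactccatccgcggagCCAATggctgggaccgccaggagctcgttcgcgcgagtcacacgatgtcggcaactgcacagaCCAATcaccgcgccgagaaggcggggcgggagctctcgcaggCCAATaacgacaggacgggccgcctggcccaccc
STARD4 (chr5:111512536-111512785, minus strand): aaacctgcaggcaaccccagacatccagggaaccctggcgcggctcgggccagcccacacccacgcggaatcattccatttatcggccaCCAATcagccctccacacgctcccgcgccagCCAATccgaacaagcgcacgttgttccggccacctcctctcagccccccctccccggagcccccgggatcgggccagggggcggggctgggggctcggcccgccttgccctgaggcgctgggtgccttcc
DHCR7 (chr11:71448394-71448643, minus strand): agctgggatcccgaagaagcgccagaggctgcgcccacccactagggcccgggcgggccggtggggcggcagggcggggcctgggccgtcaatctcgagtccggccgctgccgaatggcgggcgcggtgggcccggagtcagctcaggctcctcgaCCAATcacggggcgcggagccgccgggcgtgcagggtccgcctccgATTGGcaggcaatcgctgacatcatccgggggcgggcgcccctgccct
SREBF2 held the 1 sterol response element of these windows, and 1 CCAAT box. MSMO1 held 4 CCAAT boxes, STARD4 2 and DHCR7 2 in the first of its 2 listed windows, and CYP51A1 held neither motif, but 1 GC box.

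RefSeq windows were found for 30 of the 34 genes (44 windows, since some genes have several starts). ACAT2, FASN, FDFT1 and SQLE were not among them. A CCAAT box lay in the window of 24 of the 30 genes (80.0%), against 41.8% of the 9340 genes with a window that reached a TPM of 5 in any library. By window this was 28 of 44 (63.6%), against 32.9% of 13676 windows. It was 14 of 16 sterol genes, 8 of 11 fatty acid genes and 2 of the 3 control genes. A GC box was found for 28 of 30 genes (93.3%, against 75.7%), and an E-box for 3 of 30 (INSIG1, SC5D and ELOVL5), against 11.6%. The sterol response element as written was found for SREBF2 and for 1 of the 5 windows of ACSL1, or 6.67% of genes against 1.19%, a share that rests on 2 genes. These are matches of letters in a short window. Of the genes past 1.5-fold in a line, MSMO1, STARD4 and ACSL1 (lower) and ACACA and DHCR7 (higher) held a CCAAT box in a window. CYP51A1 (lower) held none. A link between motifs and log2 ratios was not tested.

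In H1299 the median log2 ratio of the 12 fatty acid genes was -0.32, against -0.11 for all genes. Of the 12, 9 lay below the median of all genes and 3 above it, and 1 was past the 1.5-fold rule, a count near the background. Without the mitochondrially encoded genes the median was -0.27. ACSL1, which activates long-chain fatty acids to acyl-CoA, had 10.1 TPM in H1299 siCDH3 and 16.3 TPM in H1299 siCTR, a log2 ratio of -0.64. It was the 1 fatty acid gene past the rule, and with the median of all genes set to 0 it was at -0.54, short of it. In HCC827 it had 18.1 TPM in siCDH3 and 16.5 TPM in siCTR, a log2 ratio of 0.13. Its relative ACSL3 was at -0.46 in H1299 and -0.11 in HCC827.

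SCD, the stearoyl-CoA desaturase that makes oleate, carried most of the fatty acid transcripts of H1299. It had 1591 TPM in H1299 siCDH3 and 2189 TPM in H1299 siCTR, a log2 ratio of -0.46, and 311.6 TPM in HCC827 siCDH3 and 298.1 TPM in HCC827 siCTR, a log2 ratio of 0.06. Its share of the summed TPM of the 12 genes was 68.2% in H1299 siCDH3, 71.5% in H1299 siCTR, 32.5% in HCC827 siCDH3 and 34.03% in HCC827 siCTR. The sum was 2331 TPM in H1299 siCDH3 and 3062 TPM in H1299 siCTR, 76.1% of the control, or 84.8% without SCD. In HCC827 it was 958.7 TPM in siCDH3 and 876.2 TPM in siCTR, 109.4% of the control. The sum of the 19 sterol genes was 93.1% of the control in H1299 and 112.8% in HCC827. These sums are not corrected for the median log2 ratio of all genes, -0.11 in H1299 and 0.03 in HCC827.

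ACACA encodes acetyl-CoA carboxylase, the committed step that makes malonyl-CoA. It had 73.1 TPM in HCC827 siCDH3 and 39.8 TPM in HCC827 siCTR, a log2 ratio of 0.86, the highest of the 34 genes, with 161 genes of the line above it. In H1299 it had 32.7 TPM in siCDH3 and 43.9 TPM in siCTR, a log2 ratio of -0.41. FASN, the fatty acid synthase that uses malonyl-CoA, was at -0.13 in H1299 and 0.20 in HCC827. ELOVL6, which elongates palmitate, was at -0.34 in H1299 and at 0.58 in HCC827, short of the rule before rounding, although it was 1.52-fold higher there by TPM. ELOVL5, an elongase of polyunsaturated chains, had 223.8 TPM in siCDH3 and 285.4 TPM in siCTR of H1299 (log2 ratio -0.35), and 75.2 and 77.5 TPM in siCDH3 and siCTR of HCC827 (-0.04).

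The remaining fatty acid genes had log2 ratios from -0.30 to 0.33 in the 2 lines. ACLY, which splits citrate to supply acetyl-CoA, had 45.04 TPM in H1299 siCDH3 and 55.2 TPM in H1299 siCTR, and 144.2 TPM in HCC827 siCDH3 and 144.8 TPM in HCC827 siCTR. FADS2, a desaturase of polyunsaturated chains, had 17.3 TPM in H1299 siCDH3 and 21.6 TPM in H1299 siCTR, and 6.32 TPM in HCC827 siCDH3 and 6.497 TPM in HCC827 siCTR. The log2 ratios of ACLY and FADS2 were -0.29 and -0.30 in H1299 and -0.01 and -0.03 in HCC827, below the median of all genes in both lines. ACSS2, which makes acetyl-CoA from acetate, FADS1, the partner desaturase of FADS2, and ELOVL1, an elongase of very long saturated chains, lay above the median of all genes in both lines. Their log2 ratios were 0.04, 0.07 and 0.14 in H1299, and 0.08, 0.07 and 0.33 in HCC827. In HCC827 the median of the 12 genes was 0.08, against 0.03 for all genes, and 8 lay above that median and 4 below.

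**Figure D3:**
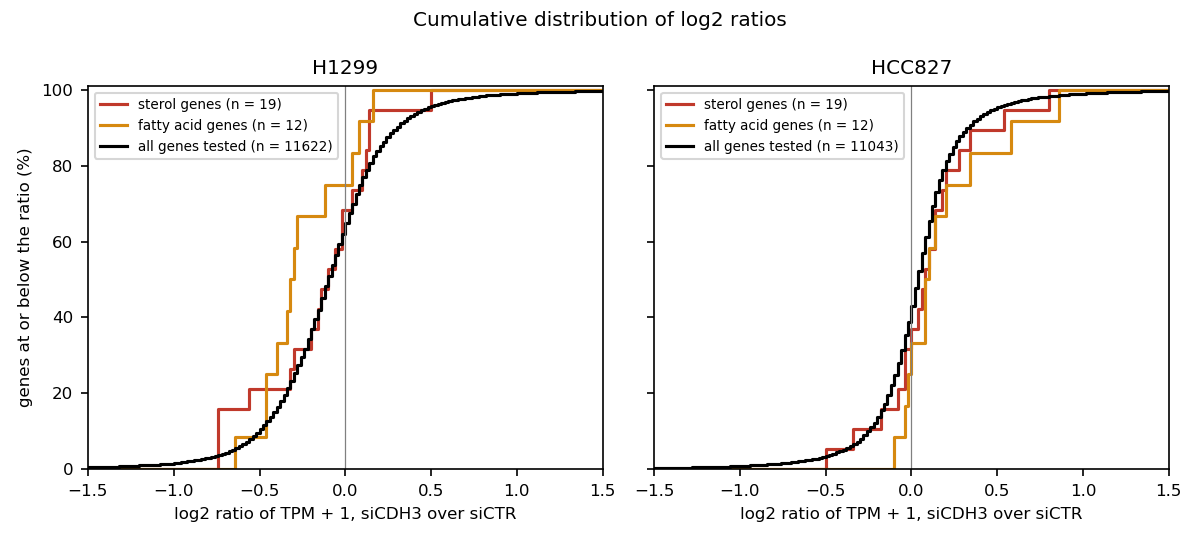
Cumulative share of genes (%) at or below each log2 ratio of TPM + 1, siCDH3 over siCTR, for the 19 sterol genes, the 12 fatty acid genes and all genes tested, in H1299 (left) and HCC827 (right). In H1299 the median is -0.32 for fatty acid genes and -0.11 for all genes, but the curves cross in the lower tail, and the sterol median equals that of all genes.

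Log2 ratios in H1299 varied with transcript length and base composition. Over all genes, a quadratic trend on these properties accounted for 10.9% of the variance in H1299, and for 0.316% in HCC827. The longest transcript had a median of 4799 bases over the 12 fatty acid genes and 2666 bases over the 19 sterol genes, against 3418 bases over the genes tested. With the trend removed, the median in H1299 was -0.25 for the fatty acid genes and -0.17 for the sterol genes. The median of all genes was kept near -0.11, so the sterol median, equal to it before, then lay below it. The ratios were -0.64 for CYP51A1, -0.60 for MSMO1, -0.57 for ACSL1 and -0.49 for STARD4, so that ACSL1 and STARD4 no longer reached 1.5-fold. DHCR7 in H1299 was then at 0.38. ACACA and DHCR7 in HCC827 were at 0.83 and 0.79.

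Set side by side, the lines differed in how many fatty acid genes lay low. Relative to the median of all genes in each line, 5 fatty acid genes (ACACA, FASN, ELOVL6, SCD and ACSL1) lay below it in H1299 and above it in HCC827, and 0 the other way. Of the 34 genes, 11 (32.4%) lay below in H1299 and above in HCC827 and 2 (5.88%) the other way, against 23.3% and 23.8% of the 9724 genes tested in both lines. A further 12 lay above in both lines and 9 below in both. The difference between the lines was not tested, because each line has 1 library per group.

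Across the lines, limma was fitted to log2(TPM + 1) of 12941 genes with the cell line as a block, which takes the lines as the units of replication and leaves 1 residual degree of freedom. None of the 34 genes passed a Benjamini-Hochberg adjusted p of 0.05, a threshold passed by 1 gene (0.00773%). An unadjusted p under 0.05 was reached by 2 of the 34 genes (5.88%), close to the 4.49% of all genes. These were STARD4, with a mean log2 ratio of -0.64 ± 0.16 (SE, limma, Benjamini-Hochberg adjusted p = 0.95), lower in 2 of 2 lines, and DHCR7, with 0.64 ± 0.16 (SE, limma, Benjamini-Hochberg adjusted p = 0.95), higher in 2 of 2 lines. SC5D followed, with -0.35 ± 0.15 (SE, limma, Benjamini-Hochberg adjusted p = 0.95). Each SE uses a variance that limma draws towards that of all genes, so it is not the spread between the 2 lines alone.

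Other genes of the pathways were described from lists of named genes. Of 14 further sterol and SREBP control genes, 13 were tested in H1299 and 14 in HCC827. LBR, an inner nuclear membrane protein that is also a sterol reductase, was the 1 of them at least 1.5-fold lower in H1299 siCDH3, with 11.5 TPM in siCDH3 and 18.8 TPM in siCTR (log2 ratio -0.67). TMEM97, a sterol-regulated membrane protein, was the 1 lower in HCC827 siCDH3, with 5.41 TPM in siCDH3 and 8.85 TPM in siCTR (-0.62), and was at 0.43 in H1299. Over all genes, 7.11% were at least 1.5-fold lower in H1299 siCDH3 and 2.54% in HCC827 siCDH3. The medians of the 14 genes, where tested, were -0.23 in H1299 and 0.04 in HCC827. Of 7 genes of LXR signalling and cholesterol export, 6 were tested and 0 reached 1.5-fold in either line, with medians of -0.18 and 0.00.

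Of 28 further fatty acid genes, 22 were tested in H1299 and 18 in HCC827, where 0 reached 1.5-fold. In H1299 siCDH3 3 of the 22 were lower and 2 higher, where 7.11% of all genes were lower and 3.21% higher. In HCC827 siCDH3 2.54% of all genes were lower and 3.35% higher. HSD17B12, the ketoacyl-CoA reductase of fatty acid elongation, had 15.2 TPM in H1299 siCDH3 and 39.9 TPM in H1299 siCTR, a log2 ratio of -1.34, with 75 genes of the line below it, and 53.2 and 45.8 TPM in siCDH3 and siCTR of HCC827. HACD2, a dehydratase of the same elongation cycle, went the other way, with 13.2 TPM in H1299 siCDH3 and 7.74 TPM in H1299 siCTR (0.70). The cytosolic NADPH source IDH1 was at -0.67, MID1IP1, an activator of acetyl-CoA carboxylase, at -0.60, and MLXIPL, which encodes the carbohydrate response factor ChREBP, at 0.67. The list medians were -0.15 in H1299 and 0.05 in HCC827.

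The control libraries were then compared to describe the lines without CDH3 silencing, HCC827 over H1299. By the 1.5-fold rule 19.4% of 12601 genes were higher and 42.4% lower in HCC827, and by a 2-fold rule 13.5% and 27.8%. The median log2 ratio was -0.39. Of the 34 genes, 4 were at least 1.5-fold higher and 16 lower, and 1 was at least 2-fold higher and 14 lower. With the median of all genes set to 0, 5 were at least 1.5-fold higher and 14 lower, and 4 (MSMO1, NSDHL, SC5D and ACLY) were at least 2-fold higher and 8 lower. No share over all genes is given on that scale, so these counts have no background beside them. SCD had the largest difference, at 298.1 TPM in HCC827 siCTR and 2189 TPM in H1299 siCTR, 7.34-fold lower in HCC827. Among fatty acid genes ELOVL5 (3.68-fold) and FADS2 (3.33-fold) were also lower in HCC827, while ACLY was 2.62-fold higher.

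Among sterol genes IDI1 was 4.06-fold lower in HCC827, TM7SF2 3.82-fold, STARD4 3.46-fold and LSS 3.14-fold. TM7SF2 had 13.5 TPM in HCC827 siCDH3, 15.6 TPM in HCC827 siCTR, 63.1 TPM in H1299 siCDH3 and 59.5 TPM in H1299 siCTR, and LSS had 20.5, 21.2, 59.1 and 66.4 TPM in the same libraries. MSMO1, NSDHL and SC5D, of the later steps, were the 3 sterol genes at least 1.5-fold higher in HCC827. Relative to the median of all genes the mevalonate gene PMVK, at 0.72, also passed the rule. All 3 control genes were lower in HCC827, with log2 ratios of -1.74 for SREBF1, -0.78 for SREBF2 and -0.78 for INSIG1. Relative to the median of all genes SREBF2 and INSIG1 were at -0.39 each, short of 1.5-fold. The median of the 19 sterol genes was -0.36, near that of all genes. With TPM recomputed without the mitochondrially encoded genes, it was 0.07, so its sign depends on the scaling. The median of the 12 fatty acid genes was -0.72, and -0.28 without the mitochondrially encoded genes, where SCD was at -2.43.

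**Figure D4:**
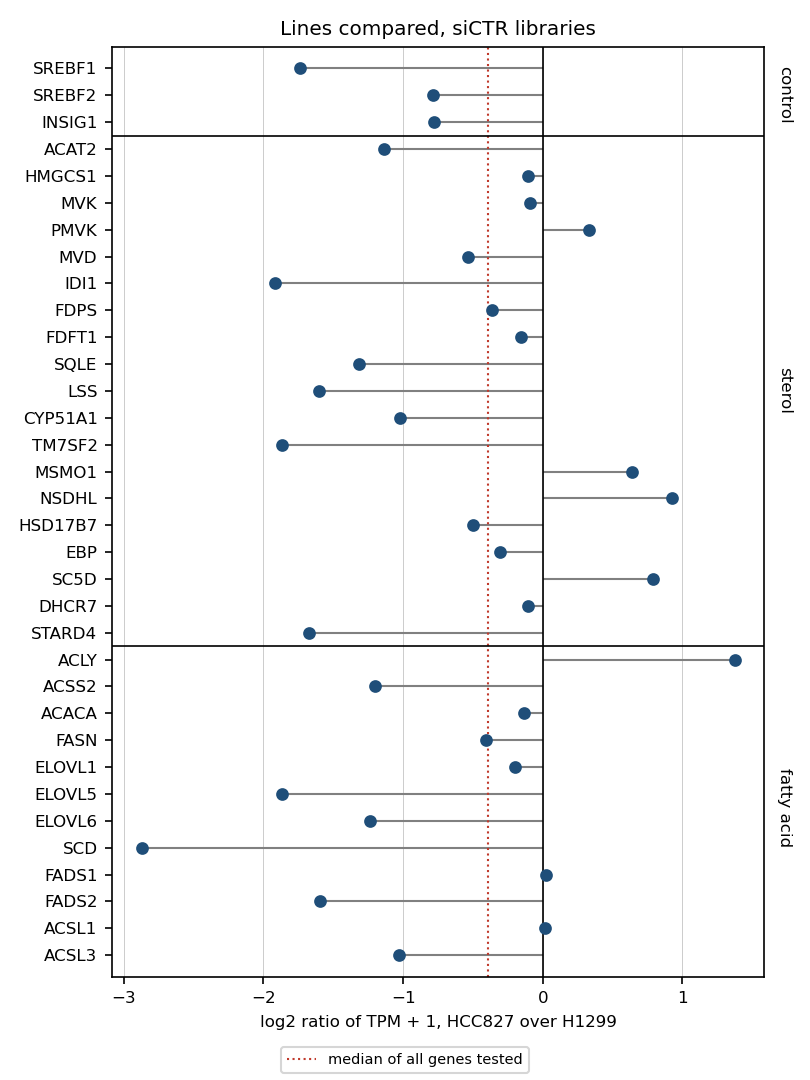
Log2 ratio of TPM + 1 in the siCTR libraries, HCC827 over H1299, for the 34 genes. The dotted line is the median of all 12601 genes compared, -0.39. SCD lies lowest at -2.87 and ACLY highest at 1.37.

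Several genes share sequence with other transcribed genes, and neither the counting method nor its use of strand is stated in the labels. Exons of 5 of the 34 overlap in GENCODE 29 with those of a gene at 5 TPM or more in a library. These are ACAT2 with TCP1, MVK with MMAB, TM7SF2 with VPS51, FADS2 with FEN1, and FADS1 and FADS2 with each other, and their TPM is less certain for that reason. Other overlapping genes had no TPM under their GENCODE 29 identifier, so their level could not be assessed. Such genes overlap CYP51A1, on its own strand, and ACAT2, on the opposite strand. The pseudogene HSD17B7P2 had between 0.673 and 2.26 TPM, and the other pseudogenes named after these genes were under 1 TPM.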

How the data were processed

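RNA sequencing of 4 libraries was deposited as 1 table of TPM per gene. The authors deposited TPM values that have nearly the same total in every library, per the column sums, with 1 column per library. The genome build is hg19, per the submitters' processing notes, while aligner, quantifier, use of strand and depth: not given in the sources used here. TPM keeps no depth, so no counting interval or floor can be given. Whether libraries came from separate cultures is not stated, and the spread within a group is unknown.

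Log2 ratios used TPM + 1, which understates the change of low genes, for genes that reached a TPM of 5 in either library compared. No test was run within a line. Across lines, log2(TPM + 1) of 12941 genes entered limma 3.58.1 under R 4.3.3, with cell line as a block, with Benjamini-Hochberg adjustment over all genes, and was tested on simulated data. Libraries were paired by the line named in their labels. Transcript length, GC content and exon overlaps came from GENCODE 29 by gene identifier, without coordinates, and promoters from RefSeq on GRCh38.p14.

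The members and lists were chosen with earlier results of these data known. The levels in every library are printed for the 3 control genes, for genes past 1.5-fold in either line and for the 4 sterol and 4 fatty acid genes with the largest difference between lines. Of the other pathway genes those past 1.5-fold are named, and other names were chosen after their values were seen. Alternatives were pseudocounts, filters, scaling, the size rule, list means and other limma fits. Removal of a length and GC trend was chosen after seeing the data.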

Additional observations from a re-analysis of the deposited data

Results flagged for a closer look

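For 3 genes that reached 1.5-fold in 1 line, the log2 ratio of siCDH3 over siCTR had opposite signs in the lines, with 1 library per group in each. CYP51A1 was at -0.75 in H1299 and 0.14 in HCC827. ACACA was at -0.41 in H1299 and 0.86 in HCC827. ACSL1 was at -0.64 in H1299 and 0.13 in HCC827. The difference between the lines was not tested. Of all genes tested in both lines, 23.3% lay below the median in H1299 and above it in HCC827. That share is set against the medians, not 0, and is not limited to genes past 1.5-fold, so it is no background here.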

How the results depend on the processing

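Of the recomputed medians and counts, 107 stayed within 0.1 on the log2 scale or within 1.5 times the count, and 25 did not. With the median of all genes set to 0, the sterol median was -0.0003 in H1299 and 0.0285 for HCC827 over H1299 in siCTR, and the fatty acid median was -0.21 in H1299 and -0.32 for HCC827 over H1299. Without the mitochondrially encoded genes the medians for HCC827 over H1299 were 0.0698 for sterol and -0.28 for fatty acid genes. As list means the sterol value there was -0.53, and for fatty acid genes the median was -1.03 with a filter at TPM 20 and -0.59 with the length and GC trend removed. At a size rule of 2-fold, 0 genes were counted in either list within either line. The count of 1 fatty acid gene in H1299, ACSL1, became 0 with a pseudocount of 5, a filter at TPM 20 (which ACSL1 did not pass), the median set to 0 or the trend removed. The count of 1 in HCC827 became 2 with a pseudocount of 0.1, as ELOVL6 then passed. The 1 gene that limma called over all genes, none of the 34, became 0 without the cell line block (replicate block), with no filter and without the mitochondrially encoded genes, and was 0 to 0 with each library left out in turn, which was run without the block because 3 libraries with it leave no residual degree of freedom. The lone library of an arm is then assumed to vary like the others. Limma called 0 of the 34 genes in every fit. Leaving out a library within a line was not possible with 1 per group. The cause of these shifts was not tested, except where the filter removed genes. The depth is unknown, so low TPM, such as STARD4 and FADS2 in HCC827, have unknown precision.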
